A study of Mus musculus with 40 samples.

Results

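Integrins are receptors made of an alpha and a beta subunit that tie a cell to its surroundings, and laminins are basement membrane proteins made of an alpha, a beta and a gamma chain. The members described here are the 37 protein-coding genes of the expression table whose symbols are those of integrin subunits (26 genes) or laminin chains (11 genes), out of 54307 genes listed and 21537 that are protein-coding. The integrins were divided by where they are mainly known to act. The leukocyte class held 8 genes (*Itgal*, *Itgam*, *Itgax*, *Itgad*, *Itgae*, *Itga4*, *Itgb2* and *Itgb7*), the vascular, platelet and connective tissue class held 11 (*Itga1*, *Itga2*, *Itga2b*, *Itga5*, *Itga7* to *Itga11*, *Itgb3* and *Itgb5*), and the epithelial, neural and widely expressed class held 7 (*Itga3*, *Itga6*, *Itgav*, *Itgb1*, *Itgb4*, *Itgb6* and *Itgb8*). The laminins comprised 5 alpha, 3 beta and 3 gamma chains.

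RNA had been measured in choroid and retina of 20 mice with laser-induced choroidal neovascularization, collected 3 days after 6 burns per eye, and only the central, lesioned part of the choroid was used. Each tissue had 4 groups of 5 libraries, with controls and *Tgfbr2*ΔEC mice either off (-PLX) or on (+PLX) the drug PLX5622. All mice were on the C57BL/6J background, carried floxed *Tgfbr2* alleles, and received tamoxifen as eye drops at 6 to 7 weeks of age. *Tgfbr2*ΔEC mice also carried *Cdh5*-CreERT2, a recombinase driven by an endothelial promoter that tamoxifen activates, and controls did not carry it. +PLX mice were fed PLX5622, an inhibitor of the CSF1 receptor that depletes mononuclear phagocytes (MP), from the first tamoxifen dose until collection. Both sexes were used, but the labels give no sex for a mouse, so it was inferred from the transcripts *Ddx3y* and *Xist*. By these there were 3 males among the 5 mice of either control group, 2 among the *Tgfbr2*ΔEC mice off the drug and 1 among those on it.

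The leukocyte integrins with the beta 2 subunit serve adhesion to activated vessel walls and uptake of complement-coated material, and microglia and macrophages carry the alpha M form. The alpha v integrins with beta 6 or beta 8 are known for releasing active TGFβ from its latent complex, while alpha 3, alpha 6 and alpha 7 bind laminin. In the eye, laminins form the basement membranes of the vessels, of the retinal pigment epithelium and of the inner limiting membrane.

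The values are reads per gene that the authors had normalized across all libraries, called normalized counts here, and were not whole numbers. Depth was close to 21628874 to 28174821 reads in a choroid and 21033887 to 30421581 in a retina, and 3 reads corresponded to 2.24 to 3.56 normalized counts. *Tgfbr2* itself did not pass the test between genotypes in whole choroid, with log2 differences of -0.05 without (adjusted p = 0.925) and 0.02 with PLX (adjusted p = 1; 10503 ± 425 in control and 10176 ± 1077 in mutant mice without PLX, 11155 ± 1530 and 11220 ± 454 with PLX, SD, n = 5 each). In retina the means were 213, 178, 122 and 113 in the same order, with a log2 difference between genotypes of -0.32 without PLX (adjusted p = 0.985, limma), so that the deletion, which concerns endothelial cells alone, was not visible in these whole tissue levels. The study reported loss of TGFβRII from the endothelium of both choroid and retina in a supplementary figure. Its methods checked the deletion by PCR and qPCR on choroid, and the activity of the recombinase in mT/mG reporter mice. The neural retina score (mean log2 level of 10 photoreceptor genes) was 15.9 to 16.4 in retina, and the choroids also held signal of retinal pigment epithelium (13.3 to 14.0), skeletal muscle (11.1 to 14.2) and neural retina (7.67 to 12.9). The score of 6 Müller glia markers overlapped between the tissues (12.56 to 13.45 in choroid and 12.57 to 13.07 in retina). Their summed level was higher in choroid (136086.5 to 208258.2) than in retina (54132.3 to 85492.5). The list was therefore not read as an amount of Müller glia in choroid. Differences are given as log2 differences of (normalized count + 1), which understate the change of genes near 0, with the SE and the adjusted p of limma over all genes tested.

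In the choroid, most of the leukocyte integrins were lower with PLX, and most other members did not pass the test. Averaged over both genotypes, 10 of 37 members passed the test (7.13% of all 23619 genes tested passed). Of these, 7 were lower with PLX (5.06% of all genes) and 3 were higher (2.07%). The leukocyte class had 6 of 8 members lower with a median log2 difference of -0.98 (0.000541 over all genes tested). In the vascular class 1 of 11 was higher (median 0.18), in the epithelial and widely expressed class 1 of 7 was lower (median -0.02), and among the laminins 1 of 5 alpha chains and 1 of 3 beta chains was higher (medians 0.23 and -0.05). No gamma chain passed. Outside the leukocyte class 4 of 29 members were called.

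*Itgam*, the alpha M subunit of complement receptor 3 on microglia, macrophages and neutrophils, lies on chromosome 7 of GRCm39 at 127661808 to 127717753 on the plus strand. *Itgax*, the alpha X subunit known from dendritic cells and some macrophages, starts 10914 bases downstream (127728668 to 127749829), and *Itgad* follows after another 3718 bases (127753548 to 127822988). *Itgal*, the alpha L subunit carried by most leukocytes, is on the same chromosome 727487 bases before *Itgam* (126895432 to 126934320). Their common partner *Itgb2* is on chromosome 10 (77366086 to 77401542). The 250 bases before the start of *Itgam* and of *Itgax*, neighbours that were both lower with PLX, are printed from RefSeq with coordinates of GRCm38.p6, plus strand. Capitals mark the letters GAGGAA, the purine-rich core read by the myeloid ETS factor PU.1, and its other strand TTCCTC.
Itgam, chr7:128062390-128062639: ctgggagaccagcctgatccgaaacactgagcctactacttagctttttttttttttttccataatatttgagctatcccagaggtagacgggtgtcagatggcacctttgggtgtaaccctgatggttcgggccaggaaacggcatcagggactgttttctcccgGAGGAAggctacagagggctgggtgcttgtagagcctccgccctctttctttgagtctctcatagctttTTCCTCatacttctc
Itgax, chr7:128129300-128129549: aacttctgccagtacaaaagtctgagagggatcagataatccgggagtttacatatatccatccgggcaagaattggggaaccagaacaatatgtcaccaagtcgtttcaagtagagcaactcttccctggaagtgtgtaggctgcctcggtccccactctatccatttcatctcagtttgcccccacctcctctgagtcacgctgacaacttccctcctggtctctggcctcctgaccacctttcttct
The *Itgam* window held the letters at both of the marked places, starting at positions -84 and -15 from the gene start, and the *Itgax* window held none. They occurred in 7639 of 32851 windows of this length in the RefSeq table (23.3%). Members were counted per gene, with the letters in any window of the gene. By that count 13 of the 23 members with a window held them, and 1 of the 4 leukocyte members with one. A gene may have more than 1 window, so the share of windows and the counts of members cannot be compared.

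In this comparison *Itgam* had the largest log2 difference of the members. In choroids without PLX it was 2515, 2288, 3149, 2706 and 2672 normalized counts in control mice and 2542, 2764, 3236, 2693 and 1789 in *Tgfbr2*ΔEC mice. With PLX it was 682, 656, 884, 779 and 480.2 in control mice and 670.1, 716, 597, 429 and 653 in *Tgfbr2*ΔEC mice. Each +PLX choroid was below each -PLX choroid, and 24.8% of the mean level remained. The log2 difference was -2.02 (SE 0.119, 95% interval -2.27 to -1.77, adjusted p = 1.83e-10), a 4.05-fold lower level.

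*Itgb2*, the beta subunit shared by alpha L, M, X and D, was likewise lower in every +PLX choroid. Without PLX it was 2278, 2478, 2190, 2338 and 2426 in control and 2638, 2292, 3327, 2375 and 1765 in *Tgfbr2*ΔEC choroids. On PLX it was 989, 1322, 1348, 881 and 667 in control and 946, 1082, 975, 1014 and 881 in *Tgfbr2*ΔEC choroids. *Itgam* and *Itgb2* were the 2 members of 37 whose diets did not overlap (1.75% of all genes were lower without overlap). The level was 2.40-fold lower with PLX (log2 difference -1.26, SE 0.116, adjusted p = 9.71e-08).

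For *Itgax* and *Itgal*, 9 of the 10 +PLX choroids were below every -PLX choroid. *Itgax* was 775, 969, 873, 917 and 924 in control -PLX, 793, 1304, 1232, 1122 and 642 in *Tgfbr2*ΔEC -PLX, 407, 462, 366, 672 and 303 in control +PLX, and 586, 588, 500.2, 365 and 395 in *Tgfbr2*ΔEC +PLX. 1 control +PLX choroid, at 672, stood above the lowest -PLX choroid, at 642, and the fitted level was 2.07-fold lower with PLX (log2 difference -1.05, SE 0.146, adjusted p = 3.73e-05). *Itgal* was 259, 267, 309, 235 and 332 in control -PLX, 185, 185, 229, 279 and 164 in *Tgfbr2*ΔEC -PLX, 114, 114, 123, 150.1 and 104 in control +PLX, and 122, 171, 154, 87.3 and 116 in *Tgfbr2*ΔEC +PLX. Its overlap was likewise 1 *Tgfbr2*ΔEC +PLX choroid, and the log2 difference was -0.95 (SE 0.129, 1.93-fold lower, adjusted p = 2.8e-05).

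*Itga4*, which pairs with beta 1 to bind VCAM1 and fibronectin or with beta 7 to bind mucosal vessels, was 1215 ± 192 without and 761 ± 118 with PLX (SD, n = 10 each). The range was 815 to 1478 without and 448 to 861 with PLX, so that 6 of 10 +PLX choroids were below all others, and the log2 difference was -0.68 (SE 0.113, adjusted p = 0.000326). *Itgb7*, its leukocyte beta partner, was 201 ± 92.3 without and 98.8 ± 37.9 with PLX. One *Tgfbr2*ΔEC -PLX choroid at 435 was far above the next at 249, and the diets overlapped in 4 of 10 +PLX choroids (log2 difference -1.02, SE 0.258, adjusted p = 0.0168). *Itgae*, the alpha E subunit of intraepithelial T cells that binds E-cadherin, was 63.6 ± 16.6 without and 64.2 ± 23.5 with PLX (log2 difference -0.01, adjusted p = 0.988). *Itgad*, alpha D, was at or close to 0 in nearly all choroids, with a highest value of 19.4 in 1 control -PLX choroid (log2 difference -0.64, adjusted p = 0.506).

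**Figure D1:**
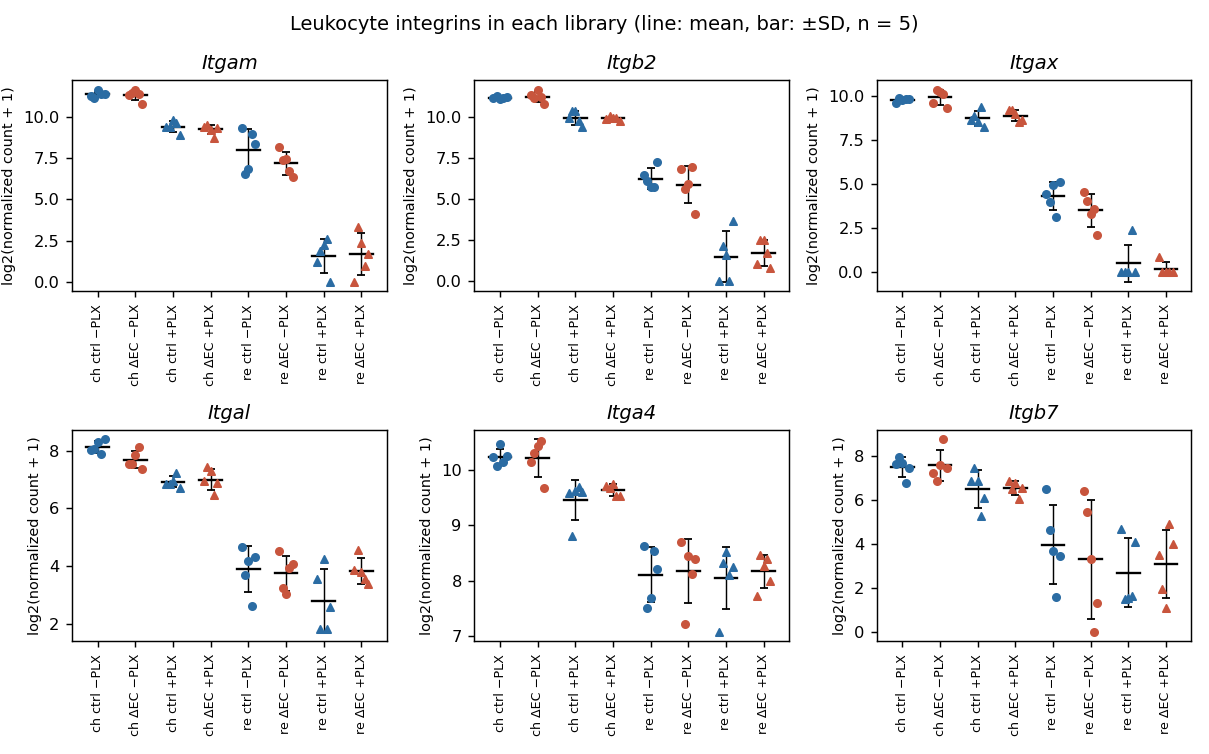
Levels of 6 leukocyte integrins in every library, as log2(normalized count + 1), with choroid groups (ch) on the left and retina groups (re) on the right of each panel. Blue is control (ctrl) and red *Tgfbr2*ΔEC (ΔEC), circles are -PLX and triangles +PLX, and lines and bars are the mean ± SD of 5 libraries. The +PLX libraries of *Itgam* and *Itgb2* lie below all -PLX libraries in both tissues, while *Itga4* and *Itgb7* overlap between the diets in retina.

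Cell type markers moved with these members. Of 13 MP markers tested, 12 were lower in +PLX choroids, and the summed level of the list was 40986 to 48387 normalized counts in the -PLX and 11060 to 15655 in the +PLX choroids, with no marker at 0 in a whole group. The MP score differed by -2.34 between diets (exact two-sided permutation p = 3.149e-05, the smallest the 63504 relabellings can give, adjusted p = 0.00109 over 104 score comparisons). The dendritic cell score was also lower (-0.70, adjusted p = 0.00109), whereas the T and NK cell score differed by -0.43 (adjusted p = 0.227) and the neutrophil score by -0.14 (adjusted p = 0.796). The part of each cell type in the integrin differences was not tested, and in whole tissue fewer cells of a type and less RNA per cell cannot be told apart.

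Outside the leukocyte class 4 of 29 members were called in choroid (7.13% of all genes), 1 lower (5.06%) and 3 higher with PLX (2.07%). *Itga6*, a laminin-binding alpha subunit of epithelial, endothelial and other cells (chromosome 2, 71575960 to 71689757), was 1432, 1526, 1492, 1757 and 1591 in control -PLX and 1456, 1521, 1803, 1660 and 1252 in *Tgfbr2*ΔEC -PLX choroids. With the drug it was 1162, 857, 1161, 1156 and 984 in control and 1047, 1181, 1331, 1082 and 1131 in *Tgfbr2*ΔEC choroids. 9 of 10 +PLX choroids were below all -PLX choroids, and the level was 1.40-fold lower (log2 difference -0.48, SE 0.0751, adjusted p = 0.000144).

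*Itga8*, an RGD-binding alpha subunit of smooth muscle and mesenchymal cells (chromosome 2, 12110900 to 12307214, minus strand), was higher with PLX. It was 217, 196, 175, 225 and 97.4 in control -PLX and 179.6, 227, 260.5, 267 and 190.4 in *Tgfbr2*ΔEC -PLX choroids. With PLX it was 279, 236, 286, 315 and 338 in control and 254, 273, 422, 277 and 336 in *Tgfbr2*ΔEC choroids. 8 of 10 +PLX choroids were above all -PLX choroids, and the level was 1.51-fold higher (log2 difference 0.59, SE 0.143, adjusted p = 0.0112).

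*Lama3*, an alpha chain of epithelial basement membranes, lies on chromosome 18 (12466876 to 12717747). It was 342, 254, 441, 325 and 256 in control -PLX, 346, 365, 439, 361 and 362 in *Tgfbr2*ΔEC -PLX, 586, 410.2, 408, 478 and 507 in control +PLX, and 468, 538, 567, 487 and 486 in *Tgfbr2*ΔEC +PLX choroids. In 8 of 10 +PLX choroids it was above all -PLX choroids (log2 difference 0.51, SE 0.0986, 1.42-fold higher, adjusted p = 0.00163). *Lamb3*, a beta chain of the same membranes, was not called (log2 difference -0.30, adjusted p = 0.818).

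*Lamb2*, a beta chain of vascular and synaptic basement membranes (chromosome 9, 108356935 to 108367729), was 5859, 7609, 7185, 7343 and 6256 in control -PLX and 6169, 8097, 6707, 6626 and 9309 in *Tgfbr2*ΔEC -PLX choroids. In +PLX choroids it was 10261, 9782, 7627, 10077 and 9597 in control and 7898, 8272, 9445, 9806 and 11106 in *Tgfbr2*ΔEC choroids. 7 of 10 +PLX choroids stood above all -PLX choroids (log2 difference 0.40, SE 0.0853, 1.32-fold higher, adjusted p = 0.00378). *Lamb1*, the other broadly expressed beta chain, was 3870 ± 432 without and 3742 ± 475 with PLX (log2 difference -0.05, adjusted p = 0.785).

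**Figure D2:**
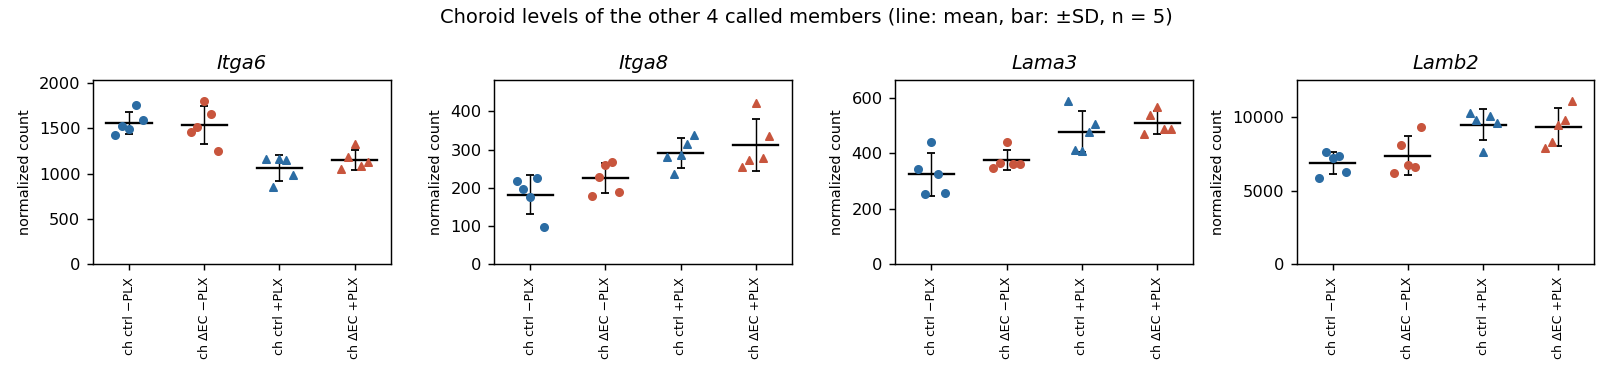
Normalized counts of the 4 called members outside the leukocyte class in every choroid, with blue for control (ctrl), red for *Tgfbr2*ΔEC (ΔEC), circles for -PLX and triangles for +PLX. Lines and bars are the mean ± SD of 5 choroids. *Itga6* is lower with PLX and the other 3 genes are higher, each with some overlap between the diets.

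Of the scores of other cell types, the endothelial score was 0.20 higher with PLX (adjusted p = 0.0104, exact permutation test) and the mural cell score 0.33 higher (adjusted p = 0.00917). The surface epithelium score (-1.741, adjusted p = 0.165) and the Schwann cell score (0.32, adjusted p = 0.227) did not pass. The part of these cell types in the higher levels of *Itga8*, *Lama3* and *Lamb2* was not tested. The platelet score differed by -1.095 (adjusted p = 0.0041, exact permutation test). The summed level of its 5 genes was 417 to 995 without and 34.1 to 156.5 with PLX, and the part of each gene is not given here. Whether fewer platelets were present was not tested. *Itga2b*, the alpha subunit of the platelet fibrinogen receptor, was 109 ± 20.6 without and 85.3 ± 20.97 with PLX (log2 difference -0.36, adjusted p = 0.219), and its beta partner *Itgb3* was 665 ± 92.2 and 620 ± 68.9 (log2 difference -0.10, adjusted p = 0.618).

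The uncalled members included most of the abundant ones, with the called *Lamb2* an exception. *Itgb1*, the beta subunit with most partners, differed by -0.05 with a 95% interval of -0.17 to 0.07. *Itgav* differed by -0.13 (adjusted p = 0.493), and its partners *Itgb5*, which binds vitronectin, by -0.16 (adjusted p = 0.237) and *Itgb8* by -0.02 (interval -0.42 to 0.39). Estimates of the collagen-binding alpha subunits were all above 0: 0.18 for *Itga1* (adjusted p = 0.259), 0.26 for *Itga2* (adjusted p = 0.0845), 0.40 for *Itga10* (adjusted p = 0.135) and 0.21 for *Itga11* (adjusted p = 0.263). Laminin chains that were not called included *Lama2* (0.24, adjusted p = 0.136), *Lama4* (0.23, adjusted p = 0.263), *Lama5* (0.23, adjusted p = 0.288) and *Lamc3* (0.32, adjusted p = 0.0905). Of the rest, the fibronectin receptor *Itga5* differed by -0.21 (adjusted p = 0.184), the muscle laminin receptor *Itga7* by 0.34 (adjusted p = 0.133) and *Itga9*, which binds tenascin, by 0.14 (adjusted p = 0.584). The laminin receptors *Itga3* (0.14, adjusted p = 0.621) and *Itgb4* (0.26, adjusted p = 0.347), the epithelial *Itgb6* (0.27, adjusted p = 0.682) and the chains *Lama1* (0.07) and *Lamc1*, the gamma chain of most laminins (0.09, adjusted p = 0.538) were not called either. In all, 19 of 37 members had an unadjusted p under 0.05, 13 of them outside the leukocyte class, beside 19.3% of all genes, and 10 were called.

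**Figure D3:**
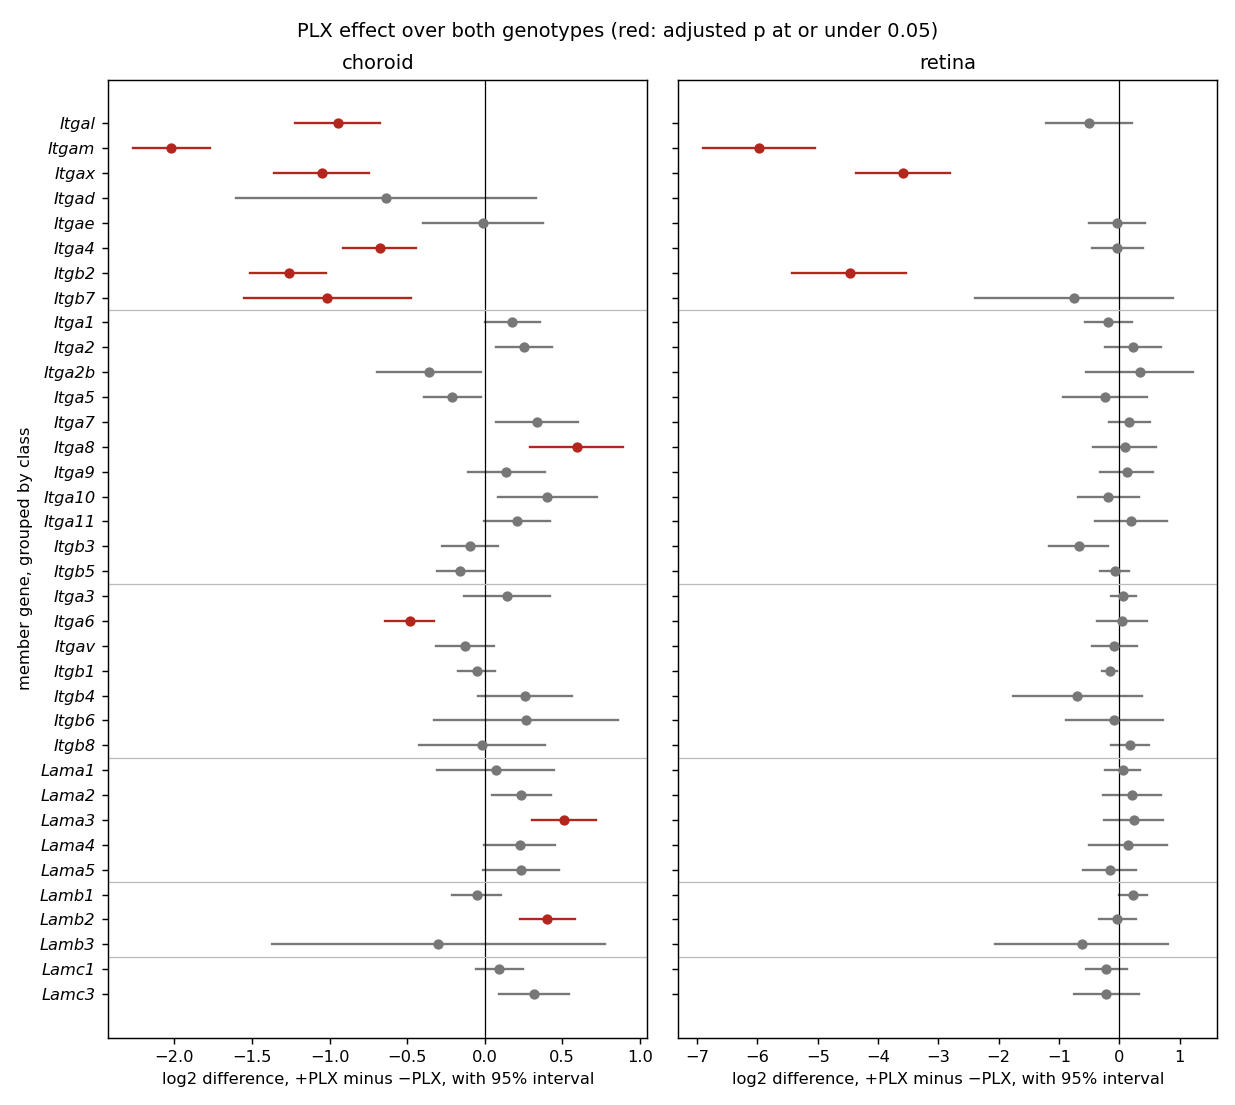
Log2 difference between +PLX and -PLX libraries over both genotypes for the members plotted, with its 95% interval, in choroid on the left and retina on the right. Points in red passed the test, grey lines separate the classes, the x axes differ between the panels, and *Itgad* was too low to be tested in retina. In choroid 10 members are red, 6 of them leukocyte integrins, and in retina *Itgam*, *Itgax* and *Itgb2* are.

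Within each genotype the calls were fewer. In control choroids 8 members were called (3.75% of all genes), 6 lower (3.15%) and 2 higher (0.601%): *Itgam* (log2 difference -1.96, adjusted p = 1.34e-07), *Itgb2* (-1.22, 4.28e-05), *Itgal* (-1.20, 0.000172), *Itgax* (-1.06, 0.00291), *Itga4* (-0.78, 0.0048), *Itga6* (-0.56, 0.00227), *Lama3* (0.58, 0.0186) and *Lamb2* (0.47, 0.0301). In *Tgfbr2*ΔEC choroids 6 were called (4.06% of all genes), all lower (3.5%), namely *Itgam* (-2.08, 7.18e-08), *Itgb2* (-1.31, 1.63e-05), *Itgax* (-1.04, 0.00385), *Itgal* (-0.69, 0.0352), *Itga4* (-0.58, 0.0438) and *Itga6* (-0.41, 0.0318). *Lama3* (0.44, adjusted p = 0.0837) and *Lamb2* (0.34, adjusted p = 0.137) had estimates of the same sign there. *Lama3* was called there in a fit of the compared groups alone (adjusted p = 0.0213) and without mouse 3 (0.0447), *Lamb2* without mouse 10 (0.0435), and *Itga2* with sex as a covariate (0.0391) and without mouse 5 or 20. In control choroids *Itga8* was called under 6 alternatives (adjusted p = 0.0353 to 0.0458), 4 of which left out 1 mouse. The test of the difference between the genotypes called none of the 37 members (0% of all genes, 1552 genes at an unadjusted p under 0.05), and *Itgal* had the lowest p (difference of the genotype effect between diets 0.52, SE 0.258, adjusted p = 0.785). With mouse 6, 8, 9, 16 or 19 left out, or with a covariate for the neural retina score, 3 members were called in *Tgfbr2*ΔEC choroids in place of 6. With that covariate *Itgal* (-0.74, adjusted p = 0.129), *Itga4* (-0.59, adjusted p = 0.198) and *Itga6* (-0.45, adjusted p = 0.104) lost their call while their estimates did not shrink. The neural retina score was 11.4 to 12.9 in *Tgfbr2*ΔEC choroids without and 8.99 to 10.3 with PLX, without overlap. Over both genotypes it differed by -1.046 between diets (adjusted p = 0.485, exact permutation test). The call of *Itga4* was also lost with sex (adjusted p = 0.0552) or the muscle score (0.0511) as a covariate, with all genes above 0 tested (0.0604), and without any 1 of 13 of the 20 mice, and that of *Itgal* in a fit of the compared groups alone (0.0809). Leaving out 1 mouse removed the call of *Itgal* in 6 and of *Itga6* in 8 of 20 cases. In control choroids *Lama3* lost its call without mouse 2, 5, 11 or 15 (highest adjusted p = 0.0686) and in a fit of the compared groups alone (adjusted p = 0.136), and *Lamb2* without mouse 1, 5, 11, 12, 14 or 15 (highest adjusted p = 0.096).

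Of the genes that carry integrin signals to actin, 3 of 16 tested were lower in +PLX choroids (5.06% of all genes) and 2 were higher (2.07%). The lower genes were *Fermt3*, the kindlin of blood cells (log2 difference -1.95, adjusted p = 3.43e-11), *Parvg*, the leukocyte parvin (-1.65, adjusted p = 0.00154), and *Ptk2b*, a kinase related to focal adhesion kinase (-1.13, adjusted p = 9.35e-10). *Parva*, a widely expressed parvin, was higher (0.25, adjusted p = 0.0149). Among 12 basement membrane partners and other laminin receptors 1 was higher, *Bcam*, a receptor of laminin alpha 5 (0.47, adjusted p = 0.0424). Among 12 other integrin ligands 1 was lower, *Spp1*, which encodes osteopontin (-1.66, adjusted p = 5.61e-08). These lists were written with earlier results of these data known.

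In the retina, *Itgam*, *Itgb2* and *Itgax* were lower with PLX and 33 of 36 tested members did not pass. The 3 calls of 36 stand beside 1.09% of all 23243 genes tested in either direction and 1.08% lower, and none of 29 members outside the leukocyte class was among them. *Itgam* was 652, 90.3, 116, 502 and 326 in control -PLX and 283, 163, 173, 103 and 80.7 in *Tgfbr2*ΔEC -PLX retinas. With PLX it was 1.34, 2.71, 3.69, 5.04 and 0 in control and 0, 8.94, 4.09, 0.948 and 2.28 in *Tgfbr2*ΔEC retinas. The diets did not overlap (0.422% of all genes were lower without overlap), the -PLX retinas spread over a wide range, and 6 of 10 +PLX retinas were at 3 reads or below. The log2 difference was -5.98 (SE 0.447, adjusted p = 1.17e-08).

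*Itgb2* was 88.0, 68.8, 51.4, 51.1 and 150.4 in control -PLX and 111, 48.7, 60.4, 121 and 15.99 in *Tgfbr2*ΔEC -PLX retinas. In +PLX retinas it was 0, 3.40, 1.97, 0 and 11.7 in control and 1.05, 4.73, 4.65, 2.26 and 0.717 in *Tgfbr2*ΔEC retinas. Again no +PLX retina reached a -PLX retina (log2 difference -4.47, SE 0.455, adjusted p = 1.24e-06). *Itgax* was 3.21 to 34.2 without PLX, and with PLX it was 0 in 8 of 10 retinas, 0.750 in 1 and 4.20 in 1, so that 9 of 10 were below all -PLX retinas (log2 difference -3.59, SE 0.378, adjusted p = 2.11e-06). These log2 differences depend on the value added before taking the logarithm, since the +PLX levels are near 0: with 5 in place of 1 they were -4.73 for *Itgam*, -3.26 for *Itgb2* and -1.86 for *Itgax*.

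Summed over 10 retinas each, about 2633 reads of *Itgam* without PLX stood against 28 with PLX. After scaling for depth the ratio was 89.2, with a 95% interval of 61.6 to 134.5 that covers counting error only. For *Itgb2* 839 and 32 reads gave 24.9 (17.5 to 36.6), and for *Itgax* 186 and 5 reads gave 35.3 (14.9 to 109.9). Without mouse 14, 1 of the 5 +PLX reads of *Itgax* was left and the ratio was 161 (28.5 to 6375.6), and without mouse 15 that of *Itgb2* was 39.2 (24.7 to 66.5). All 13 MP markers tested were lower in +PLX retinas, with a score difference of -4.91 (exact permutation p = 3.149e-05, adjusted p = 0.00109), and the summed level of the list was 2083 to 4758 without and 401 to 549 with PLX. The platelet score was also lower in retina (-0.46, adjusted p = 0.0318). The summed level of its list was low there and overlapped between the diets (6.44 to 18.5 without and 7.41 to 27.1 with PLX). The dendritic cell (-0.69, adjusted p = 0.141) and neutrophil scores (-0.64, adjusted p = 0.165) did not pass. The part of these cell types in the integrin differences was not tested. At a minimum mean of 10 *Itgax* was not tested in retina, so that 2 calls were left over both genotypes and in each. The 3 members were called in each genotype alone, in control retinas (-6.42, -4.78 and -3.85 for *Itgam*, *Itgb2* and *Itgax*, 0.736% of all genes called, 0.727% lower) and in *Tgfbr2*ΔEC retinas (-5.54, -4.17 and -3.33, 0.516% of all genes called, 0.512% lower).

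The other leukocyte integrins of the retina were not called. *Itgal* was 5.10 to 24.3 without and 2.53 to 22.5 with PLX (log2 difference -0.50, adjusted p = 1). *Itga4* was 296 ± 92.6 and 285 ± 70.3 (log2 difference -0.03), *Itgae* 17.2 ± 5.06 and 17.1 ± 5.11, and *Itgb7* 27.9 ± 34.5 and 10.6 ± 10.4 (log2 difference -0.75). The retina of mouse 1 in the control -PLX group, which held *Itgb7* at 91.5, also had a surface epithelium score of 9.98, against 1.38 to 3.18 in all other retinas, and the 3 calls held without it. *Itgb7* was nearly as high in the retina of mouse 6 (85.9), where that score was 2.49. *Itgad* was 0 in all retinas but 2. Of the 4 further members called in choroid, *Itga6* differed by 0.05, *Itga8* by 0.09, *Lama3* by 0.23 and *Lamb2* by -0.04 in retina, none of them called. The lowest unadjusted p among uncalled members were those of *Itgb3* (-0.67, adjusted p = 0.389, limma) and *Itgb1* (-0.16, adjusted p = 0.406, limma). No gene of the actin linkage list (17 tested) and none of the basement membrane list (12) was called in retina, and of 11 other ligands *Spp1* was lower (log2 difference -1.55, adjusted p = 0.000894).

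The PLX differences of the 2 tissues were compared in one fit of all 40 libraries. 3 of 36 members differed between the tissues (1.37% of all genes, 0.543% upward): *Itgam* by 3.96 (SE 0.479, adjusted p = 5.32e-07), *Itgb2* by 3.21 (SE 0.48, adjusted p = 3.25e-05) and *Itgax* by 2.54 (SE 0.397, adjusted p = 6.68e-05), as choroid minus retina. The difference was thus less negative in choroid for each. For *Itgax* the call depended on the added value, being 0.82 (adjusted p = 0.159) with 5. *Itga6* differed by -0.53 between the tissues (adjusted p = 0.361) and *Itgal* by -0.45 (adjusted p = 0.793), so that their calls in choroid and not in retina were not shown to be a difference between the tissues. Without mouse 19, whose retina held *Itga6* at 197.5 against 502 to 761 in the other 4 of its group, *Itga6* was called as well (-0.69, adjusted p = 0.0153). *Fermt3* (-1.18), *Parvg* (-1.81) and *Ptk2b* (-0.72) of the actin linkage list and the ligand *Icam1* (1.15) were called in this comparison.

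Most members were higher in choroid than in retina. Over all groups 35 of 36 tested members differed between the tissues (82% of all genes did). 34 were higher in choroid (40.8% of all genes) and 1, *Lama1*, was lower (41.1%). In 29 of 37 members every choroid was above every retina, as it was for 18.6% of all genes. The 3 largest log2 differences among members outside the leukocyte class were those of *Itga11*, a collagen receptor of fibroblasts (6.09, 68.0-fold), *Lama2*, the alpha chain of muscle and nerve laminin (5.93, 61.1-fold), and *Itgb6*, the epithelial partner of alpha v (5.87, 58.5-fold). *Itga2b* (1.359, 2.56-fold), *Itga6* (1.37, 2.59-fold) and *Itga3*, another laminin-binding alpha subunit (1.45, 2.74-fold), had the smallest among the members called higher, whereas *Lamb3* did not pass (0.95, SE 0.454, adjusted p = 0.0526), though it passed in the paired fit with the mouse as a block, which called 36 members. *Lamb3* also passed limma with 0.5 added in place of 1 (adjusted p = 0.048) and without mouse 1, 6, 9, 13, 15, 16 or 19 (0.0104 to 0.0486).

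In the leukocyte class the log2 difference between the tissues was 7.23 for *Itgax*, 6.76 for *Itgb2*, 5.72 for *Itgam*, 3.86 for *Itgal*, 3.77 for *Itgb7*, 1.84 for *Itgae* and 1.77 for *Itga4* (SE 0.122 to 0.439). The collagen receptors *Itga2* (4.59), *Itga1* (3.51) and *Itga10* (2.57) were also higher in choroid, as were *Itgb3* (5.44), *Itga5* (4.93), *Itga7* (3.31), *Itga9* (3.28), *Itgb5* (2.77) and *Itga8* (2.43). Among the widely expressed and epithelial subunits *Itgb4* differed by 4.98, *Itgb8* by 3.73, *Itgb1* by 3.68 and *Itgav* by 2.41, and among the laminin chains *Lama4* by 5.54, *Lamc3* by 4.31, *Lamb2* by 4.27, *Lamc1* by 3.65, *Lamb1* by 2.98, *Lama3* by 2.39 and *Lama5* by 1.88. The adjusted p of each was at or below the 2.77e-06 of *Itga2b*.

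*Lama1*, an alpha chain of embryonic and inner limiting membrane laminin (chromosome 17, 68004223 to 68129642), was 163 to 468 in retinas and 55.7 to 215 in choroids, with a 2.63-fold lower level in choroid (log2 difference -1.40, SE 0.115, adjusted p = 7.15e-14). Only the highest choroid overlapped with retinas.

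Per kilobase of the longest coding transcript, *Itgb1* had the highest level in choroid (2790 ± 226 normalized counts per kilobase, SD, n = 20), followed by *Itgb5* (2265 ± 267), *Itgb8* (1711 ± 467), *Lamb2* (1464 ± 278) and *Itgav* (1174 ± 177). *Lamc1* (803 ± 89.6) and *Lamb1* (642 ± 75.3) came next. The ranges of mean ± SD of neighbours in this order overlapped except between *Itgb1* and *Itgb5* and between *Itgav* and *Lamc1*. *Itgb2* was 772 ± 126 without PLX, close to *Lamc1* (775 ± 67.0), and 324 ± 65.3 with PLX (n = 10 each). *Lama1* (10.5), *Lamb3* (7.61) and *Itgad* (0.355) were lowest. In retina *Itgb5* was highest (334 ± 62.4), followed by *Itgav* (229 ± 92.5), *Itgb1* (218 ± 21.7), *Itgb8* (128 ± 30.01) and *Itga3* (124 ± 18.5). Neighbours in this order overlapped likewise except *Itgb1* and *Itgb8*. *Itgb6* (0.453) and *Itgad* (0.0228) were lowest there. The order depended on the length used. With merged exon lengths, an alternative added after seeing the data, *Itgb1* was highest in retina (188 ± 18.7), before *Itgb5* (157.5 ± 29.4) and *Itgav* (137 ± 55.5), and in choroid *Lamb2* (1355 ± 257) and *Itgb8* (1300.5 ± 355) came between *Itgb1* (2406 ± 195) and *Itgb5* (1068 ± 126). With either length *Itgav* and the TGFβ-activating beta partner *Itgb8* were among the 5 highest members in both tissues, and *Itgb6* was low in retina.

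The alpha chains divided differently in the tissues. As shares of the summed alpha chain level per kilobase, *Lama4* of vessel basement membranes made up 41.1% ± 3.797 and *Lama2* 36.4% ± 2.53 in choroid (SD, n = 20), with *Lama5* at 18.1% ± 2.61, *Lama3* at 3.40% ± 0.788 and *Lama1* at 1.05% ± 0.394. In retina *Lama5* made up 50.3% ± 9.66 and *Lama1* 27.1% ± 6.76, followed by *Lama4* (9.45% ± 3.75), *Lama3* (6.82% ± 2.40) and *Lama2* (6.27% ± 2.18). The ranges of mean ± SD of *Lama4* and *Lama2* in choroid overlapped. With merged exon lengths instead, choroid shares were 32.9% for *Lama4*, 31.5% for *Lama2* and 28.8% for *Lama5*, and the retinal order of *Lama5* (54.8%) and *Lama1* (29.1%) stayed.

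Among beta chains *Lamb2* made up 65.4% ± 4.15 of the choroid without PLX and 72.2% ± 3.87 with PLX (n = 10 each), and *Lamb1* 34.1% ± 4.22 and 27.5% ± 3.73. In retina *Lamb1* (50.3% ± 7.57) and *Lamb2* (46.5% ± 7.63) were within their SD of each other (n = 20). With merged exon lengths *Lamb2* was above *Lamb1* in retina too (58.4% ± 7.44 and 38.2% ± 7.10). The leukocyte class made up 21.6% ± 2.58 of the alpha subunit level of choroid without PLX and 9.32% ± 1.23 with PLX, and 13.4% ± 5.66 and 5.82% ± 1.596 in retina. Among beta subunits it was 10.5% ± 1.202 and 4.96% ± 1.02 in choroid, and 4.57% ± 2.43 and 0.697% ± 0.559 in retina.

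**Figure D4:**
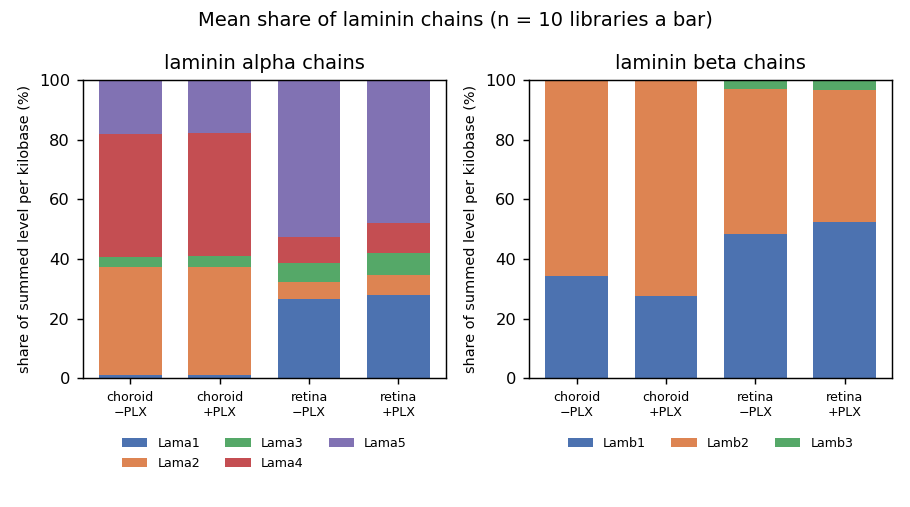
Mean share of each laminin alpha and beta chain in the summed level per kilobase of its family, in percent, for choroid and retina without and with PLX (each bar the mean of 10 libraries, with SDs given in the text). *Lama4* and *Lama2* fill most of the choroid alpha bars, *Lama5* and *Lama1* most of the retina alpha bars, and the *Lamb2* part of the choroid beta bar is larger with PLX.

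Genotype was tested in each tissue without PLX, with PLX, over both diets and as the difference between diets, and no member passed in any of these 8 comparisons by limma. In choroid 1 gene of all tested was called without PLX (0.00423%) and 1 with PLX (0.00423%), and 2 over both diets (0.00847%). The first of these counts was 411 without mouse 15 and 303 in a fit of the compared groups alone, and the third was 77 without mouse 15, with no member among them. In retina no gene was called (0% in each comparison). There 758 genes had an unadjusted limma p under 0.05 without PLX (3.26%) and 629 with PLX (2.71%). Over both diets 878 did (3.78%), and for the difference between diets 567 (2.44%). In choroid 2184, 889, 1558 and 1552 genes were under that p in the same order (9.25%, 3.76%, 6.60% and 6.57% of those tested). Of the members, 2, 1, 2 and 0 had an unadjusted p under 0.05 in the choroid comparisons, and 1, 3, 3 and 1 in retina.

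Without PLX, *Lama1* had the lowest p in choroid. It was 82.0, 55.7, 61.4, 77.2 and 77.8 in control and 115, 70.7, 124, 129 and 215 in *Tgfbr2*ΔEC choroids. 1 *Tgfbr2*ΔEC choroid was within the range of the controls and 4 were above it, and the log2 difference of 0.80 (SE 0.255) did not pass (adjusted p = 0.235, limma). The neural retina score was 2.37 higher in the same *Tgfbr2*ΔEC choroids (11.4 to 12.9 against 7.82 to 10.7, exact permutation p = 0.00794, adjusted p = 0.103), and with that score as a covariate the *Lama1* difference was 0.65 (adjusted p = 0.999). The part of retinal tissue in this difference was not tested further. *Itgal* (-0.44, SE 0.182, adjusted p = 0.421) and *Lama4* (-0.31, SE 0.154, adjusted p = 0.573) followed.

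With PLX the lowest p in choroid were those of *Itga2* (0.26, adjusted p = 1), *Itga1* (0.20) and *Itgb4*, the beta subunit of hemidesmosomes (0.33), none of them called. The estimate was 0.09 for *Itga1* without mouse 12 and 0.18 for *Itgb4* without mouse 18. Over both diets *Lama1* differed by 0.46 (SE 0.18, adjusted p = 0.752) and *Itga1* by 0.19 (adjusted p = 0.752). The difference between diets was 0.52 for *Itgal*, -0.68 for *Lama1* (adjusted p = 0.813) and -0.70 for *Itgae* (adjusted p = 0.815). For the abundant TGFβ-activating integrins the genotype difference over both diets in choroid was -0.07 for *Itgav* (95% interval -0.26 to 0.12) and -0.20 for *Itgb8* (-0.60 to 0.21), and for *Itgb6* it was -0.26 (-0.86 to 0.33).

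In retina without PLX, *Itgb1* was 1303, 1241, 1289, 1296 and 1233 in control and 1249, 1012, 1102, 1101 and 1053 in *Tgfbr2*ΔEC mice, with 1 of the latter inside the control range (log2 difference -0.21, SE 0.0809, adjusted p = 0.985). *Itga5*, the fibronectin receptor, differed by -0.86 and *Itgb6* by -0.95, and without mouse 1 these were -0.54 and -0.60. With PLX, *Itgb6* (1.361), *Itgb3* (-0.75) and *Itgal* (1.02) had the lowest p, and over both diets *Itgb3* (-0.60), *Itgb1* (-0.14) and *Itga5* (-0.79), with adjusted p of 0.928 or more. The difference between diets was 2.32 for *Itgb6* (SE 0.777, adjusted p = 1), whose level was at most 9.03 in any retina, 1.16 for *Itgal* and -0.38 for *Lamb1* (-0.22 without mouse 11).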

How the data were processed

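RNA of 40 libraries from 20 mice was analysed. Reads were assigned to transcripts with Salmon 1.10.1 (GRCm39, GENCODE M29), summed per gene with tximport and scaled between libraries with DESeq2 1.36.0, and the signal that the authors deposited is this normalized count per gene. Read counts were inferred from the steps of low values, and since 52.2% to 80.4% of these lay within 0.1 of a whole read, no count test was run. Identifiers were matched to GENCODE M39 (53700 matched, 607 did not). Genes whose mean reached 1 were tested on log2(normalized count + 1) with limma 3.58.1 (R 4.3.3, mean-variance trend, Benjamini-Hochberg adjustment over all genes, called at an adjusted p of 0.05 or less), with the 4 groups of a tissue in 1 fit and all 8 groups for comparisons of tissues. A score is the mean log2 level of a marker list. Scores were compared by exact permutation in Python 3.11.15 with scipy 1.17.1. Libraries of a group come from different mice that also differ in sex and, in choroid, in the amount of retinal tissue (neural retina score 7.67 to 12.9), so p-values measure a spread that holds these differences. The study used sex and a neuronal percentage as covariates, and here covariates were alternatives.

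Library names give both tissues the numbers 1 to 20, which were taken to mean the same mouse, though no label says so outright. The sex inferred from transcripts matched in 20 of 20 (correlation of deviations -0.112 to 0.178, median 0.0688, and 9 of 20 choroids correlated best with their own number). The groups of a tissue share no number, so a block could be fitted for the comparisons of tissues alone. The members, lists and classes were chosen with earlier results of these data known. Effects are given for each called member, or for the 3 lowest p where fewer than 3 were called, and for at most 4 called genes of each pathway list. Alternatives were other pseudocounts, minimum means, scalings, covariates (sex, neural retina and muscle scores), variance estimates, fits and transcript lengths, and leaving out each mouse. The limma step was tested on simulated data. The study's xCell neuronal percentage was not used here. *Fcrls* was the 1 MP marker of 14 without a match. 1 member counted among the 37 is not reported here by itself.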

Additional observations from a re-analysis of the deposited data

Results flagged for a closer look

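Among 286 member groups of 5 libraries, 25 held a library whose gap to the nearest of the others exceeded 0.71 of the group's range, where chance gives about 1 in 20 groups, or 14.3. In retina, mouse 1 (control -PLX) stood apart for *Itgb7* (91.52, others 1.995 to 24.13), *Itga8* (120.8, others 27.39 to 39.36), *Itgb4* (137.4, others 11.49 to 39.43) and *Lamc3* (418.3, others 59.88 to 82.46). Its surface epithelium score was 9.978 and those of the other control -PLX retinas were 1.613 to 3.182. Mouse 2 of that group stood apart for *Itga9* (702.8, others 237.5 to 275.2) and *Itgb8* (1091.2, others 867.8 to 928.8).

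Mouse 12 (control +PLX) stood apart in choroid for *Itga4* (447.5, others 769.9 to 824.2), *Lama4* (5548.6, others 2989.9 to 3569.6) and *Lama5* (3679.5, others 1846.9 to 2293), and in retina for *Itga5* (187.3, others 46.08 to 81.63) and *Itgb3* (17.99, others 12.5 to 13.75). Mouse 11 of the same group had high *Itgav* (4188.2, others 1250.8 to 1647.9) and *Lamb1* (860.6, others 451 to 532.1) in retina. In the *Tgfbr2*ΔEC -PLX retinas, *Itgav* was high in mouse 7 (2534.7, others 1378.1 to 1640.9) and *Lamb1* in mouse 8 (654.8, others 425.2 to 445.4). In the *Tgfbr2*ΔEC +PLX retinas, *Lamb3* was 89.47 in mouse 19 (others 2.56 to 3.557).

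The remaining libraries were choroids. In control -PLX, *Itgad* was 19.44 in mouse 5 (others 0 to 3.183), *Itga11* was 370.1 in mouse 5 (others 547.9 to 616.5), *Itgae* was 33.89 in mouse 2 (others 55.24 to 62.43) and *Lamb3* was 133.2 in mouse 4 (others 13.04 to 34.68). In *Tgfbr2*ΔEC -PLX, *Itgb7* was 434.8 in mouse 9 (others 114.6 to 192.1) and *Lama3* 438.8 in mouse 8 (others 345.7 to 365.4). In control +PLX mouse 13, *Lamb2* was 7627.1 (others 9597.1 to 10261) and *Lamb3* 98.12 (others 15.99 to 30.64). In *Tgfbr2*ΔEC +PLX mouse 19, *Lamc3* was 2910.6 (others 1724.2 to 2030.7).

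The PLX difference was tested between the tissues and was less negative in choroid than in retina for *Itgam* (by 3.96), *Itgb2* (by 3.21) and *Itgax* (by 2.537).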

How the results depend on the processing

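The 10 members called for PLX in choroid over both genotypes passed under each alternative run, and no called difference of a named member changed sign. In *Tgfbr2*ΔEC choroids 6 members were called, 3 with the neural retina score as covariate (the 3 lost had estimates at least as large), and 3 to 7 with 1 mouse left out. In the paired fit with the mouse as a block, 36 members in place of 35 differed between tissues (*Lamb3* was added), and the block changed no other call. *Lamb3* was likewise added with a pseudocount of 0.5 and with any 1 of several mice left out. *Itga6* joined the 3 members whose PLX difference differed between tissues when mouse 19 was left out. *Itga2* passed in choroid over both genotypes with sex as a covariate (0.27, adjusted p = 0.0454) and without mouse 20, and *Itga1* and *Itgb5* did without mouse 12. Over all genes, the genotype comparison in choroid without PLX gave 411 calls without mouse 15 and 303 in a fit of the groups compared alone, in place of 1, and that over both diets 77 without mouse 15 in place of 2. PLX gave 572 calls in control choroids fitted alone (885), 532 in *Tgfbr2*ΔEC choroids with the neural retina score (958), 154 in retina over both genotypes (254) and 104 in control retinas (171) at a minimum mean of 10, and the comparison of the PLX difference between tissues gave 620 without mouse 15 (332). The causes were not tested. Depth limits the retina, where +PLX *Itgam* and *Itgb2* lay near 3 reads and *Itgax* was at 0 in 8 of 10 libraries. Scaling to equal totals moved the median of all genes by -0.121 between the tissues.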
